A study of Mus musculus with 2 samples.

Results

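The neuregulins and the ErbB receptors were described as a family of 8 genes, of the 55450 genes listed for each library. The members were taken by symbol, whatever their level: the ligand genes Nrg1, Nrg2, Nrg3 and Nrg4 and the receptor genes Egfr, Erbb2, Erbb3 and Erbb4. All 8 were listed and all 8 had at least 1 unique molecular identifier (UMI, a tag that marks 1 captured RNA molecule) in each library. The series holds 2 droplet libraries of the cerebral cortex of C57BL/6 mice, a model of preterm white matter injury, and its purpose was to compare the cells of injured and uninjured cortex. The control library came from cortex on the same side as the ligation in mice whose treatment was given only as control, although both libraries carry the same protocol text. The WMI library came from the ligated side of mice in which the right common carotid artery was tied and hypoxia followed. By the labels surgery was on postnatal day 7, hypoxia lasted 1 h, tissue was taken on postnatal day 14 and nuclei were loaded. The study's methods give surgery on postnatal day 3, 90 min at 6% oxygen, tissue on postnatal day 10 and dissociated cells. Its results take the cells from a control and a WMI hemisphere and call the unaffected side the control. Its methods name control and WMI brains. The labels do not say how many mice entered a library. Each group is 1 library here, so no difference between the groups could be tested, no p-value was computed, and every interval below is a 95% interval that covers counting error only, not the variation between mice.

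After filters and removal of predicted doublets, 8755 control and 7571 WMI cells were kept, with a median of 4411 and 5107 UMIs per cell. The deposited totals were 66470806 UMIs over 10288 barcodes and 60568639 UMIs over 8354 barcodes. Only 29 kept barcodes were shared by the libraries. The libraries also differed in ways that accompany the group: 64.5% of WMI cells and 0.240% of control cells held a UMI of Xist or Tsix, transcribed from the inactive X chromosome or its antisense, and the median mitochondrial share was 0.448% and 0.0607%. The classes used below, with control and WMI cells, were OPC-like (324 and 507), pre-OL-like (131 and 431), mature OL-like (105 and 65), astrocyte-like (483 and 588), interneuron-like (458 and 385) and excitatory neuron-like (3053 and 2270). Every listed marker of each of these classes had a UMI in that class in both libraries. This alone does not bear on the names, because microglia-like cells also had UMIs of all 8 excitatory markers. Another 41.8% of control and 17.1% of WMI cells stayed unnamed. Among these unnamed cells were 2 clusters with excitatory markers, which held 40.1% and 2.73% of all kept cells. They were kept out of the excitatory class because Gad1 and Gad2 there were at least at the level of microglia-like cells.

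Neuregulins are growth factors with an EGF-like domain, many of them released from a membrane-bound precursor. Nrg1 and Nrg2 bind the receptors ErbB3 and ErbB4, and Nrg3 and Nrg4 bind ErbB4. ErbB2 binds no known ligand and serves as a partner, ErbB3 has little kinase activity of its own and signals through partners, and Egfr binds EGF, TGF-alpha and related ligands. In the cortex ErbB4 is known for its role in interneurons, and neuregulin signals are known for roles in Schwann cells and oligodendrocytes.

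In GENCODE M21 (GRCm38), to which every listed gene identifier matched, Nrg1 (ENSMUSG00000062991) lies on the minus strand at chr8:31814551-32884029 and Nrg3 (ENSMUSG00000041014) on the minus strand at chr14:38368952-39473088. Erbb4 (ENSMUSG00000062209) lies on the minus strand at chr1:68032186-69108059. These 3 genes span 1069, 1104 and 1076 kb. Nrg2 (ENSMUSG00000060275, minus strand, chr18:36017652-36197380) spans 180 kb, and Nrg4 (ENSMUSG00000032311, minus strand, chr9:55220222-55326844) spans 107 kb. Egfr (ENSMUSG00000020122, plus strand, chr11:16752203-16918158) spans 166 kb. Erbb2 (ENSMUSG00000062312, plus strand, chr11:98412470-98437716) and Erbb3 (ENSMUSG00000018166, minus strand, chr10:128567523-128589652) span 25.2 and 22.1 kb. Each member overlaps at least 1 other annotated gene, and where their reads were split is not given in the sources used here. The largest of these overlaps were Gm20642 and Nrg3os within Nrg3, with 14363 and 14250 UMIs beside 694496 of Nrg3, and Fbxo22 beside Nrg4, with 1758 UMIs against 630.

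Levels are given in CPM, the UMIs of a gene scaled to the customary fixed total of UMIs for each class and library, and compare classes for 1 gene, not genes with each other, because gene length was not taken into account.

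**Figure D1:**
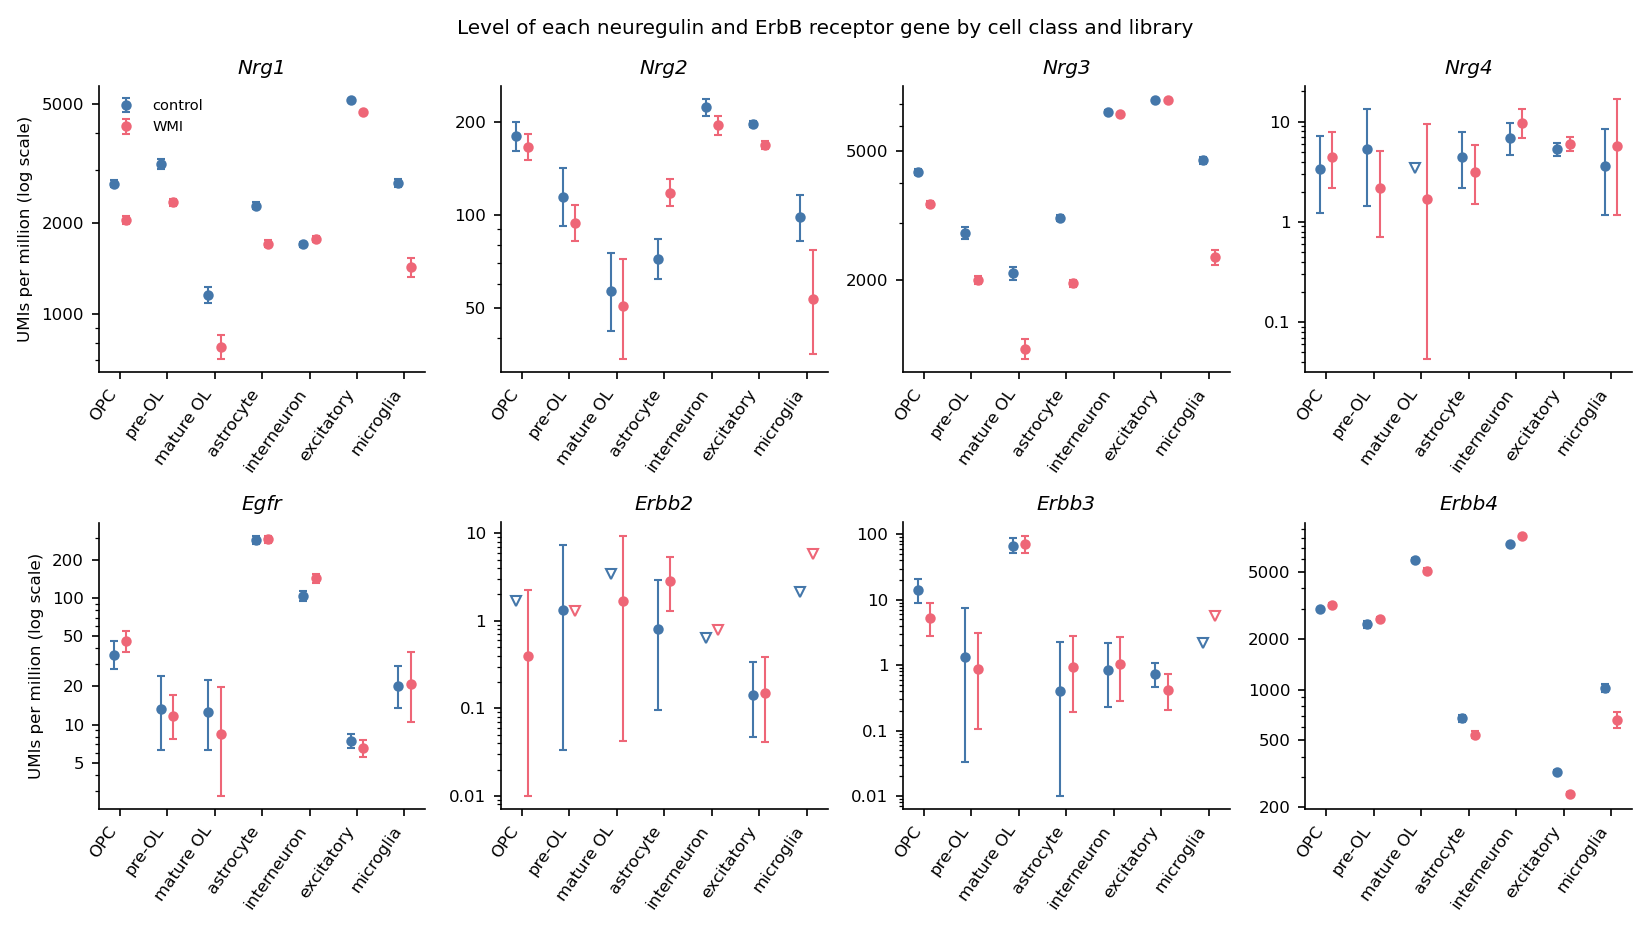
Level of each member (y axis, CPM, log scale) in 6 cell classes and in microglia-like cells, in control (blue) and WMI (red); points are levels, bars are 95% Poisson intervals, and open triangles mark a class with no UMI at the level that 3 UMIs would give. Erbb4 was highest in interneuron-like and mature OL-like cells, Erbb3 in mature OL-like cells and Egfr in astrocyte-like cells. Erbb2 had very few UMIs in every class.

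RNA from broken cells can enter all droplets, and how much of each level it made up was not measured here. Microglia-like cells, which are not known as a source of excitatory neuron markers, held all 8 of these markers (among them Slc17a7, Neurod6, Neurod2 and Tbr1), at a summed 758 CPM in control and 453 CPM in WMI. Excitatory neuron-like cells held 1182 and 1185 CPM. In the 5 other classes the summed level ran from 296 to 510 CPM in control and from 247 to 397 CPM in WMI, and it was lower in WMI in each of them. Their part in the differences between the libraries was not tested. The microglia-like level of each member is therefore printed as a reference in the same library. In WMI this reference is 120 cells, and the 1678 activated myeloid-like cells of that library held more, with 626 CPM of the excitatory markers, 1918 CPM of Nrg1, 3235 CPM of Nrg3, 75.8 CPM of Nrg2 and 768 CPM of Erbb4.

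The ligand gene Nrg1 was highest in excitatory neuron-like cells. Its level there was 5160 CPM in control and 4697 CPM in WMI, against 2726 and 1429 CPM in microglia-like cells. Interneuron-like cells held 1702 and 1770 CPM. In control the interneuron-like level was below the microglia-like level, at 0.625 times it (interval 0.601 to 0.649), and in WMI it was 1.24 times that level (1.15 to 1.34) but below the 1918 CPM of activated myeloid-like cells. Excitatory markers in interneuron-like cells stood at 0.391 and 0.574 times the microglia-like level. Pre-OL-like cells came next to excitatory neuron-like cells in both libraries, with 3154 and 2353 CPM of Nrg1. OPC-like cells held 2712 and 2053 CPM, astrocyte-like cells 2288 and 1710 CPM and mature OL-like cells 1156 and 776 CPM. The pre-OL-like level was 1.16 times (1.1 to 1.22) the microglia-like level in control and 1.65 times (1.53 to 1.78) in WMI, while their excitatory markers stood at 0.569 and 0.768 times those of microglia-like cells. Both pre-OL-like clusters had Bcas1 and Enpp6 among their leading genes. The one also led by Gpr17, Bmp4 and Nkx2-2, called earlier, had the higher Nrg1 level, 3765 CPM in control and 2794 CPM in WMI. The one also led by Tcf7l2, called later, had 2642 and 1898 CPM. Their order in time was not tested. In mature OL-like cells Nrg1 stood at 0.424 and 0.543 times the microglia-like level and the excitatory markers at 0.504 and 0.545 times, so that Nrg1 in these cells was at or below the proportion to the markers seen in microglia-like cells.

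Among excitatory neuron-like cells Nrg1 followed the layer classes, which were named from markers that did not include any member, and clusters that no list named are left out. Layer 4-like cells, marked by Rorb and Rspo1, had the highest level, 7665 CPM in control (interval 7602 to 7727) and 6789 CPM in WMI (6707 to 6872). Upper-layer-like cells had 5057 and 4790 CPM, layer 6-like cells 4272 and 4114 CPM, and layer 5-like cells 3462 and 3480 CPM. Near-projecting-like cells, marked by Tshz2 and Vwc2l, had the lowest level, 2782 and 2657 CPM. The layer 4-like level was 1.52 times (1.5 to 1.53) the upper-layer-like level in control and 1.42 times (1.39 to 1.44) in WMI. It was 2.76 times (2.67 to 2.84) and 2.56 times (2.47 to 2.64) the near-projecting-like level. The order of the 5 layer classes was the same in both libraries.

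Nrg3 was the neuregulin gene with the most UMIs, 382014 in control and 312482 in WMI. Excitatory neuron-like cells held 7224 and 7228 CPM and interneuron-like cells 6620 and 6504 CPM. Microglia-like cells held 4688 and 2350 CPM. The interneuron-like level was 1.41 times (1.37 to 1.45) the microglia-like level in control and 2.77 times (2.61 to 2.93) in WMI, although excitatory markers in interneuron-like cells were only 0.391 and 0.574 times the microglia-like level. Of the oligodendrocyte lineage and astrocyte-like classes, OPC-like cells were highest, with 4310 and 3440 CPM. They were followed in control by astrocyte-like (3106), pre-OL-like (2798) and mature OL-like cells (2096). The microglia-like level was above the OPC-like level in control, at 1.09 times it (1.05 to 1.12). The OPC-like level was 1.46 times (1.38 to 1.55) the microglia-like level in WMI, where activated myeloid-like cells held 3235 CPM. In WMI pre-OL-like and astrocyte-like cells did not differ beyond counting error, at 1997 and 1957 CPM, and mature OL-like cells had 1226 CPM. In mature OL-like cells the level was 0.447 and 0.521 times the microglia-like level and in astrocyte-like cells 0.663 and 0.833 times. The excitatory markers gave 0.504 and 0.545 times in mature OL-like cells and 0.653 and 0.775 times in astrocyte-like cells.

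The layer pattern of Nrg3 differed from that of Nrg1. Layer 6-like and near-projecting-like cells were highest, with 8995 and 8484 CPM in control and 8804 and 9031 CPM in WMI. Layer 4-like cells had 7371 and 6804 CPM, upper-layer-like cells 6403 and 6381 CPM and layer 5-like cells 6003 and 6682 CPM. The near-projecting-like level was 1.32 times (1.30 to 1.35) the upper-layer-like level in control and 1.42 times (1.39 to 1.44) in WMI, while for Nrg1 the same ratios were 0.550 (0.533 to 0.567) and 0.555 (0.537 to 0.573). The 2 near-projecting-like clusters were unlike each other: the one led by Sntb1, Dkk2 and Npsr1 had 9958 and 10961 CPM of Nrg3, the highest of any cluster in both libraries, and the other had 5933 and 6145 CPM. Interneuron-like subtypes lay close together, between 6506 and 6821 CPM in control and between 6229 and 6843 CPM in WMI.

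**Figure D2:**
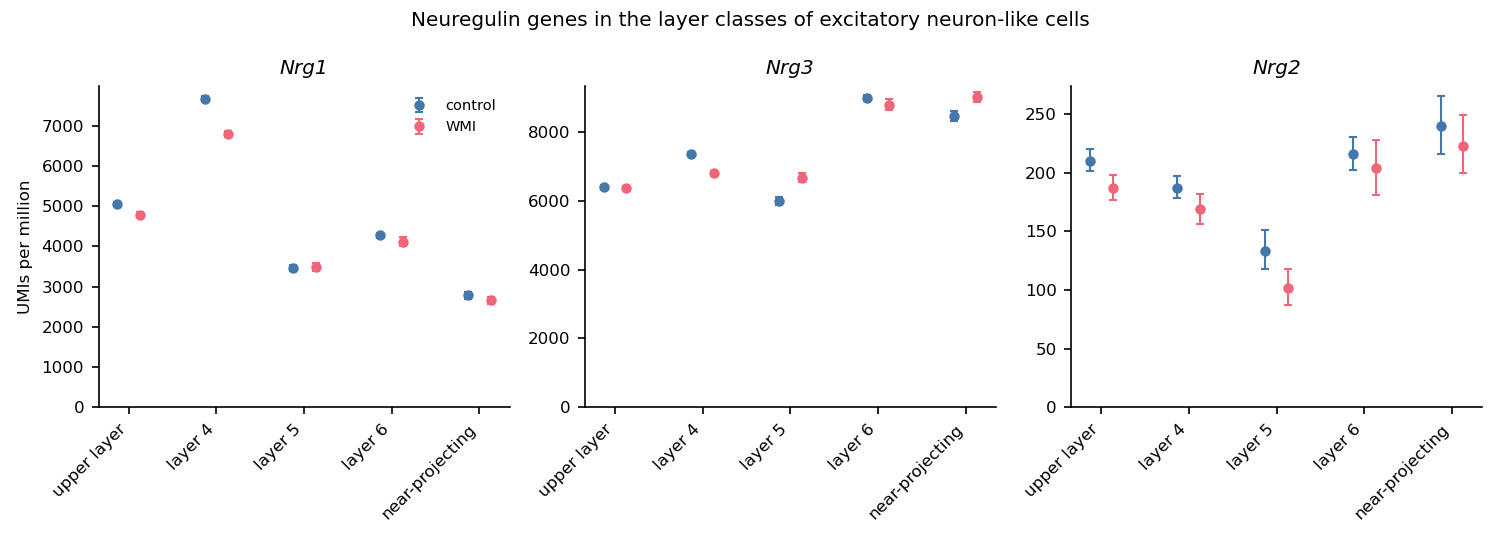
Levels of Nrg1, Nrg3 and Nrg2 (y axis, CPM, from 0) in 5 layer classes of excitatory neuron-like cells, in control (blue) and WMI (red), with 95% Poisson intervals. Nrg1 was highest in layer 4-like cells (7665 and 6789 CPM) and lowest in near-projecting-like cells, where Nrg3 reached 8484 and 9031 CPM.

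Nrg2 had far fewer UMIs than Nrg1 and Nrg3, with 10212 in control and 8237 in WMI. Interneuron-like cells held 224 and 196 CPM, excitatory neuron-like cells 197 and 169 CPM and OPC-like cells 180 and 167 CPM. The excitatory and OPC-like levels did not differ beyond counting error in either library. Pre-OL-like cells held 115 and 94.7 CPM and mature OL-like cells 57.0 and 50.7 CPM, so the level was lower at each later stage of the lineage in both libraries. Microglia-like cells held 98.5 and 53.5 CPM. OPC-like cells stood at 1.83 times (1.49 to 2.25) the microglia-like level in control and 3.11 times (2.12 to 4.74) in WMI. Sst interneuron-like cells held 137 and 144 CPM of Nrg2, below the Lhx6 interneuron-like cells without Sst (256 and 230 CPM) and the Adarb2 interneuron-like cells (257 and 196 CPM).

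Nrg4 had few UMIs in every class, with 294 over all kept cells in control and 336 in WMI. Interneuron-like cells held 6.79 CPM (interval 4.65 to 9.59) and 9.66 CPM (6.80 to 13.3), and excitatory neuron-like cells 5.32 and 6.03 CPM. Within the excitatory class, upper-layer-like cells held 9.0 CPM (7.18 to 11.1) and 8.05 CPM (6.11 to 10.4) and layer 6-like cells 1.87 CPM (0.809 to 3.69) and 2.78 CPM (0.757 to 7.12). In mature OL-like cells 1 UMI was found in 65 WMI cells and none in 105 control cells, where 3 UMIs would have given 3.42 CPM. The 1678 activated myeloid-like cells of the WMI library held 56 UMIs in 43 cells, or 11.5 CPM (8.69 to 14.9). The microglia-like cells of that library held 5.74 CPM (1.18 to 16.8). Of the activated myeloid-like cells, 1061 lay in a cluster where 6 of 7 listed markers passed the naming thresholds. The other 617 lay in one where 3 of 7 did.

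Of the receptor genes, Erbb4 was highest in interneuron-like cells, where 458 control cells held 34441 UMIs and 385 WMI cells 31300 UMIs, or 7312 and 8171 CPM. These cells held 44.8% and 44.4% of the Erbb4 UMIs of all kept cells and 8.11% and 7.00% of all UMIs. Mature OL-like cells came second with 5931 and 5094 CPM, then OPC-like cells with 2999 and 3185 CPM and pre-OL-like cells with 2452 and 2634 CPM. Microglia-like cells held 1023 and 660 CPM, astrocyte-like cells 675 and 539 CPM and excitatory neuron-like cells 325 and 240 CPM. The order was the same in the 2 libraries and each class differed from the next beyond counting error. All 3 stages of the oligodendrocyte lineage stood above the microglia-like level: OPC-like cells at 2.93 times (2.77 to 3.11) and 4.83 times (4.33 to 5.39), pre-OL-like cells at 2.40 times (2.24 to 2.57) and 3.99 times (3.58 to 4.46), and mature OL-like cells at 5.80 times (5.47 to 6.15) and 7.72 times (6.90 to 8.66). Excitatory neuron-like cells stood at 0.318 times (0.301 to 0.336) and 0.364 times (0.326 to 0.406). Whether this Erbb4 came from the cells themselves or from RNA of broken cells was not tested.

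When every cell was brought to 1000 UMIs, 92.7% of control and 91.3% of WMI OPC-like cells would have held an Erbb4 UMI, against 61.0% and 48.6% of microglia-like cells and 29.7% and 23.9% of excitatory neuron-like cells. Unthinned, the shares were 100% and 99.6% of OPC-like, 92.8% and 92.5% of microglia-like and 95.7% and 89.8% of excitatory neuron-like cells. The median depths were 5147 and 4422 UMIs in OPC-like cells, 3146.5 and 4096.5 in microglia-like cells and 10310 and 9868.5 in excitatory neuron-like cells.

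Erbb4 did not change in 1 direction along the oligodendrocyte lineage. The pre-OL-like level was 0.817 times (0.775 to 0.862) the OPC-like level in control and 0.827 times (0.80 to 0.855) in WMI. Excitatory markers stood at 0.845 and 0.877 times for the same pair. The summed interneuron markers went from 1302 CPM in OPC-like to 697 CPM in pre-OL-like cells in control. In WMI they went from 1126 to 536 CPM. Their part in the lower Erbb4 was not tested. The mature OL-like level was 2.42 times (2.29 to 2.55) and 1.93 times (1.85 to 2.02) the pre-OL-like level. The earlier pre-OL-like cluster held 2529 and 2907 CPM and the later one 2387 and 2352 CPM. The later level was 0.809 times (0.769 to 0.851) the earlier one in WMI, and in control the clusters did not differ beyond counting error, at 0.944 times (0.860 to 1.03). The larger mature OL-like cluster, of 70 control and 57 WMI cells, held 6085 and 5313 CPM. The smaller one had 5580 CPM in 35 control cells and 2974 CPM in 8 WMI cells.

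Interneuron-like subtypes differed more in Erbb4 than any of the stages did. Lhx6 interneuron-like cells without Sst, whose 10 leading genes included Kcnc2, Btbd11 and Erbb4 itself, held 10309 CPM (interval 10174 to 10445) in control and 11447 CPM (11265 to 11630) in WMI. Adarb2 interneuron-like cells held 7962 and 8971 CPM and Sst interneuron-like cells 1667 and 1709 CPM. The first subtype stood at 6.18 times (5.92 to 6.47) and 6.70 times (6.35 to 7.07) the Sst level. Excitatory markers in these subtypes differed by 0.890 and 1.18 times for the same pair.

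Erbb3 was highest by level in mature OL-like cells and next in OPC-like cells, at low counts. Mature OL-like cells held 59 of the 143 control UMIs and 42 of the 91 WMI UMIs while holding 1.51% and 1.08% of all UMIs. Their level was 67.3 CPM (interval 51.2 to 86.8) in control and 71.0 CPM (51.2 to 96.0) in WMI. OPC-like cells had 13.9 CPM (8.98 to 20.5) and 5.21 CPM (2.77 to 8.91). Pre-OL-like cells were below both neighbouring stages, with 1 UMI in 131 control cells and 2 UMIs in 431 WMI cells, or 1.32 and 0.869 CPM. The mature OL-like level was 4.85 times (2.99 to 8.08) the OPC-like level in control and 13.6 times (7.18 to 27.7) in WMI. Microglia-like cells held no Erbb3 UMI, and a level of 2.16 CPM in control and 5.74 CPM in WMI would have given 3. Activated myeloid-like cells of the WMI library held 9 UMIs, or 1.85 CPM (0.846 to 3.51). Astrocyte-like, interneuron-like and excitatory neuron-like cells held between 0.40 and 1.04 CPM. An Erbb3 UMI was found in 37 of 105 control and 24 of 65 WMI mature OL-like cells, and all of these cells also held Erbb4. In OPC-like cells this held for 21 and 11 cells. These pairs were counted without thinning, and nearly every OPC-like and mature OL-like cell held Erbb4.

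Erbb2, the partner receptor, had very few UMIs. Its UMIs numbered 14 in 8755 control cells and 20 in 7571 WMI cells, each in a cell of its own. In the oligodendrocyte lineage there was 1 UMI in control, in a pre-OL-like cell, and 2 UMIs in WMI, in an OPC-like and a mature OL-like cell. Interneuron-like cells had 0 of 458 and 0 of 385 cells with a UMI, which by the 3-count limit allows a share of up to 0.655% and 0.779% of cells with a UMI. With so few UMIs captured, this does not limit the share of cells that express the gene. The largest counts were in WMI astrocyte-like cells, with 9 UMIs or 2.83 CPM (1.30 to 5.38), against 2 UMIs or 0.80 CPM (0.0969 to 2.89) in control. At this depth co-detection of Erbb2 and Erbb3 could not be assessed: 1 WMI mature OL-like cell held both.

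Egfr had another distribution from the other receptor genes. Astrocyte-like cells held 288 CPM (interval 267 to 310) in control and 293 CPM (274 to 312) in WMI, 14.3 times (9.82 to 21.7) and 13.9 times (7.74 to 28.0) the microglia-like levels of 20.1 and 21 CPM. At 1000 UMIs per cell, 23.4% and 22.2% of astrocyte-like cells would have held an Egfr UMI, against 1.91% and 1.97% of microglia-like cells. Unthinned, it was 62.5% and 60.9% against 6.28% and 9.17%. Interneuron-like cells held 103 and 144 CPM, OPC-like cells 35.5 and 45.7 CPM, pre-OL-like cells 13.2 and 11.7 CPM, mature OL-like cells 12.5 and 8.45 CPM and excitatory neuron-like cells 7.39 and 6.48 CPM. Pre-OL-like and mature OL-like cells did not differ from microglia-like cells beyond counting error.

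Interneuron Egfr was nearly all in 1 subtype. Adarb2 interneuron-like cells held 467 of 486 control UMIs and 517 of 550 WMI UMIs, at 368 CPM (336 to 403) and 316 CPM (290 to 345). Lhx6 interneuron-like cells without Sst had 7.43 and 17.4 CPM and Sst interneuron-like cells 2.33 and 11.5 CPM. The Adarb2 level was 49.5 times (30.2 to 87.4) that of Lhx6 cells without Sst in control and 18.2 times (12 to 29.0) in WMI.

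Egfr also differed among OPC-like clusters. The cluster led by the cell division genes Top2a, Mki67 and Tpx2 held 101 CPM of Egfr (64.2 to 152) in 33 control cells and 196 CPM (152 to 248) in 57 WMI cells. The 2 other OPC-like clusters held 23.9 and 36.2 CPM in control and 16.8 and 26.6 CPM in WMI. The UMIs of the dividing cluster came from few cells: 6 of 33 control cells held 23 UMIs and 13 of 57 WMI cells held 68. The same cluster held 383 and 302 CPM of Pdgfra, the OPC receptor for PDGF, against 434 to 503 CPM in the other 2.

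**Figure D3:**
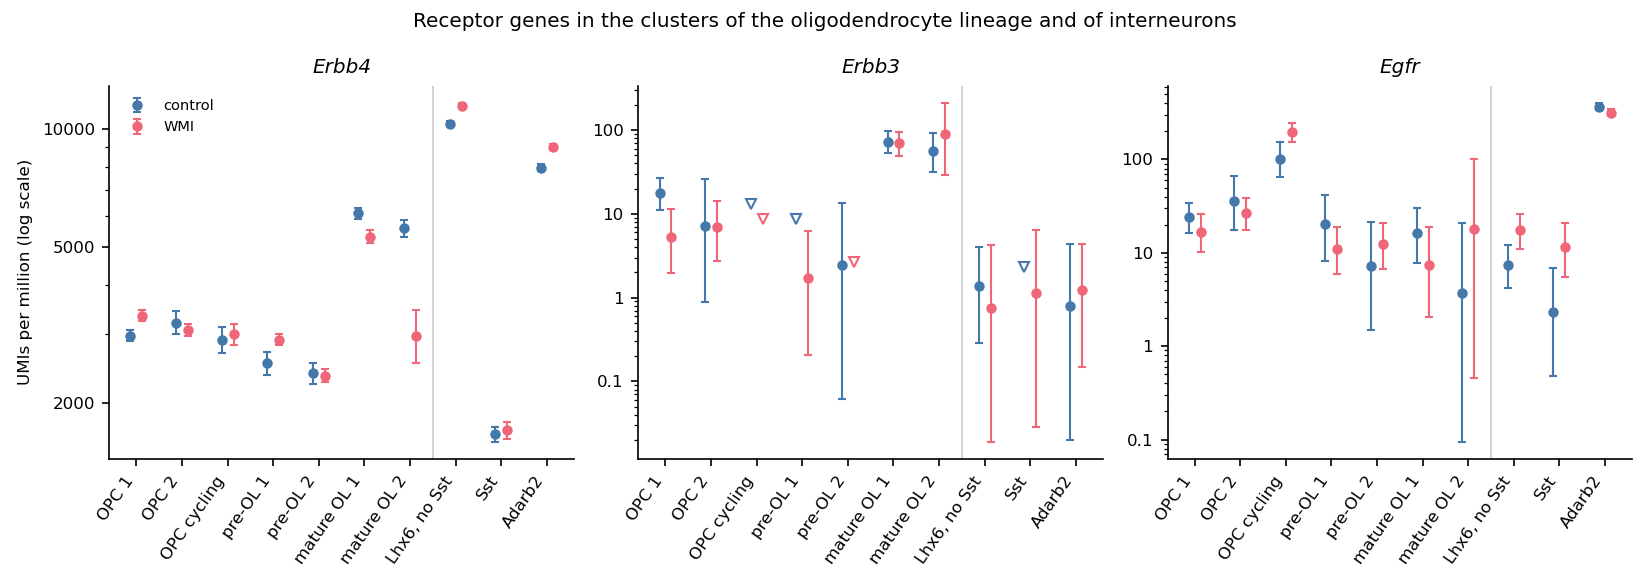
Levels of Erbb4, Erbb3 and Egfr (y axis, CPM, log scale) in the 7 clusters of the oligodendrocyte lineage and in 3 interneuron-like subtypes, in control (blue) and WMI (red), with 95% Poisson intervals; open triangles mark a cluster with no UMI at the level that 3 UMIs would give, and OPC cycling is the cluster led by Top2a. Erbb4 was highest in Lhx6 interneuron-like cells without Sst (10309 and 11447 CPM), Erbb3 in mature OL-like clusters, and Egfr in Adarb2 interneuron-like cells (368 and 316 CPM) and in the dividing OPC-like cluster (101 and 196 CPM).

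Further classes held Egfr at high levels in few cells. Fibroblast-like cells, in which Dcn, Col1a1 and Col1a2 were detected and Lum and Slc6a13 were at 0, held 1445 CPM (1254 to 1657) in 20 control cells and 1320 CPM (1113 to 1556) in 16 WMI cells. Neuroblast-like cells, which express Sp8, Dlx2 and Sox11, held 274 CPM (216 to 342) in 55 control cells and 142 CPM (117 to 172) in 181 WMI cells. The same neuroblast-like cells held 4391 and 4614 CPM of Erbb4, above OPC-like and pre-OL-like cells and below mature OL-like cells.

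The comparison of WMI with control asks which members changed in cortex after the injury, and it rests on 1 library per group. A ratio was computed where a gene had at least 100 UMIs in a class over both libraries, and a ratio of at least 1.5-fold in either direction was counted. In OPC-like cells 0 of 5 members compared were past that fold, against 7.24% of all genes compared. In pre-OL-like cells it was 0 of 4, against 9.55%. In mature OL-like cells it was 1 of 4, against 16.5%, and in astrocyte-like cells 2 of 5, against 17.6%. In interneuron-like cells it was 0 of 5, against 8.47%, and in excitatory neuron-like cells 0 of 6, against 10.0%. With 4 to 6 members in a class, these counts cannot be set apart from the share of all genes. With the 2 clusters that were kept out of the excitatory class, 2 of 6 members were past the fold there. These were Erbb4 and Egfr, both lower in WMI, with log2 ratios of -1.07 and -0.71. The 2 clusters add 3511 control and 207 WMI cells. The share of all genes past the fold with them is not given, so this count cannot be set apart from it.

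Of the members compared in these 6 classes, the only one past the fold that was higher in WMI was Nrg2 in astrocyte-like cells. It had 181 UMIs in 483 control cells and 376 UMIs in 588 WMI cells, or 72.4 and 118 CPM, a log2 ratio of 0.71 (interval 0.45 to 0.97) or 1.64-fold. The microglia-like level moved the other way, from 98.5 to 53.5 CPM, and activated myeloid-like cells of the WMI library held 75.8 CPM. In control the astrocyte-like level was below the microglia-like level, at 0.735 times it (0.586 to 0.925), and in WMI it was 2.21 times it (1.51 to 3.37). A finer clustering split the astrocyte-like cells in 2. In the cluster with less Gfap, an intermediate filament gene of reactive astrocytes, Nrg2 was 68.4 CPM in 407 control cells and 96.7 CPM in 365 WMI cells. In the Gfap-rich cluster it was 98.0 CPM in 76 control cells and 158 CPM in 223 WMI cells. Gfap itself was higher in WMI within both, at 35.6 and 390 CPM in the first cluster and 261 and 1390 CPM in the second. The split therefore does not compare the libraries at a like Gfap level. The log2 ratios of Nrg2 were 0.50 (0.18 to 0.82) and 0.69 (0.15 to 1.27). With cells thinned to 1000 UMIs before counting, the log2 ratio in the whole class was 0.33 (-0.29 to 0.96), and with predicted doublets kept it was 0.49 (0.28 to 0.71), both short of the fold. In cells with UMIs of Y-linked genes and none of Xist or Tsix, it was 0.84 (0.47 to 1.21). The 9 microglia markers, all detected, summed to 165 CPM in control and 497 CPM in WMI astrocyte-like cells, and the 10 astrocyte markers, all detected, to 21106 and 15792 CPM. Their part in the result was not tested.

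Nrg3 was lower in WMI in mature OL-like cells, with 2096 CPM in control and 1226 CPM in WMI, a log2 ratio of -0.77 (-0.90 to -0.65) or 1.71-fold. It was also lower in astrocyte-like cells, with 3106 and 1957 CPM, a log2 ratio of -0.67 (-0.72 to -0.62) or 1.59-fold, which was -0.56 and short of the fold with cells thinned to 1000 UMIs. Over the same libraries it went from 4688 to 2350 CPM in microglia-like cells, with 3235 CPM in the activated myeloid-like cells of WMI, and the excitatory markers went from 382 to 247 CPM in mature OL-like cells and from 495 to 351 CPM in astrocyte-like cells. All 8 of these markers were detected in both classes in both libraries, and their part in the lower Nrg3 was not tested. In excitatory neuron-like cells, where Nrg3 was highest, the log2 ratio was 0.00 (-0.01 to 0.01), and in interneuron-like cells it was -0.03 (-0.05 to -0.00).

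The same was seen for Nrg1, at less than 1.5-fold. Its log2 ratio was -0.40 (-0.46 to -0.34) in OPC-like cells and -0.42 (-0.49 to -0.35) in cells of the pre-OL-like stage, then -0.57 (-0.74 to -0.41) in mature OL-like and -0.42 (-0.47 to -0.37) in astrocyte-like cells. It was -0.14 (-0.15 to -0.12) in excitatory neuron-like and 0.06 (0.01 to 0.10) in interneuron-like cells. Within the excitatory class the layer 4-like level fell by 0.18 (interval -0.20 to -0.15) on the log2 scale, and in the 4 other layer classes the 2 libraries lay within 1.06-fold of each other.

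**Figure D4:**
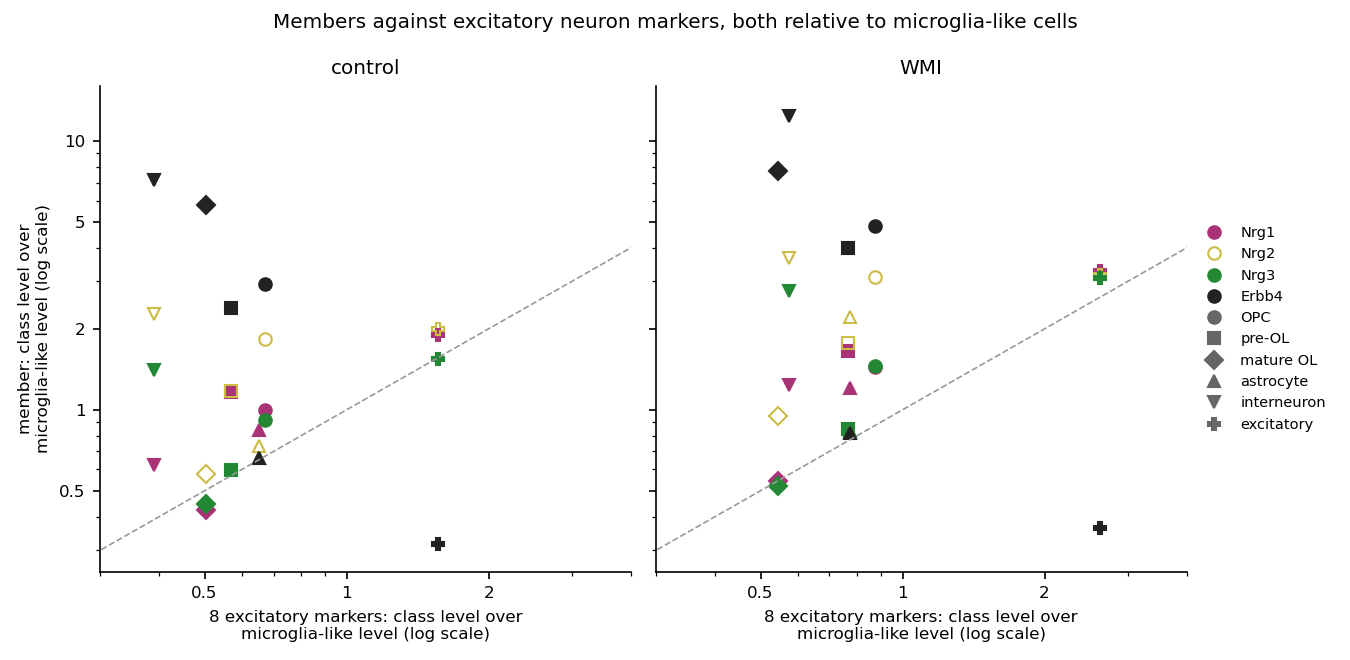
Level of Nrg1, Nrg2, Nrg3 and Erbb4 in each of 6 classes over the microglia-like level of the same library (y axis, log scale) against the same ratio for the summed 8 excitatory neuron markers (x axis, log scale), in control (left) and WMI (right); the dashed line marks equal ratios. Nrg1 and Nrg3 in mature OL-like cells lie below the line in control (0.424 and 0.447 against 0.504), while Erbb4 in interneuron-like, OPC-like, pre-OL-like and mature OL-like cells lies above it.

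For Erbb4 the log2 ratio in OPC-like cells was 0.09 (0.04 to 0.14), and for the pre-OL-like stage 0.10 (0.03 to 0.18). With cells thinned to 1000 UMIs the OPC-like ratio was -0.03. The ratio was -0.22 (-0.28 to -0.15) in mature OL-like and 0.16 (0.14 to 0.18) in interneuron-like cells. In the pre-OL-like class it was -0.13 at the finer clustering and -0.03 with predicted doublets kept, so its direction was not settled. In astrocyte-like and excitatory neuron-like cells, where the level was at or below that of microglia-like cells, it was -0.32 (-0.42 to -0.23) and -0.44 (-0.48 to -0.40), beside -0.63 (-0.81 to -0.46) in microglia-like cells themselves. Erbb4 was higher in WMI in Lhx6 cells without Sst, by 0.15 (0.12 to 0.18), and in Adarb2 cells, by 0.17 (0.14 to 0.21), while in Sst cells the ratio was 0.04 (-0.06 to 0.13).

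Erbb3 in mature OL-like cells had 59 UMIs in control and 42 in WMI, and its log2 ratio was 0.08 (-0.53 to 0.67), an interval that spans differences in both directions. Over the alternatives this ratio ran from -0.67 in male cells to 0.56 with predicted doublets kept. In OPC-like cells Erbb3 had 25 and 13 UMIs, too few to be compared by the rule, and the ratio of the levels was -1.41 (-2.50 to -0.39). Over the OPC-like clusters, 23 of the 25 control UMIs and 6 of the 13 WMI UMIs were in 1 cluster, of 231 and 193 cells. The dividing cluster held none in 33 and 57 cells.

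Egfr in astrocyte-like cells had a log2 ratio of 0.02 (-0.12 to 0.17), the smallest in size of the members compared there. That ratio was -0.29 in male cells and 0.10 with predicted doublets kept. In interneuron-like cells it was 0.48 (0.30 to 0.66). Adarb2 interneuron-like cells were 136 of 458 in control and 169 of 385 in WMI, and within them Egfr was lower in WMI, with a log2 ratio of -0.22 (-0.40 to -0.03). With clusters given equal weight in both libraries, the ratio over interneuron-like cells was -0.13. The higher level of the whole class was not seen with that weighting, to which Adarb2 cells give nearly all Egfr UMIs. In the other subtypes Egfr was higher in WMI, from few UMIs. Lhx6 cells without Sst held 7.43 and 17.4 CPM, from 16 and 23 UMIs. Sst cells held 2.33 and 11.5 CPM, from 3 and 10 UMIs. The part of subtype make-up was not tested. In OPC-like cells the ratio was 0.36 (-0.09 to 0.83), but it was -0.58 at the finer clustering, -0.43 with predicted doublets kept and -0.41 in male cells. In neuroblast-like cells it was -0.94 (-1.38 to -0.50), from 77 UMIs in control and 108 in WMI.

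**Figure D5:**
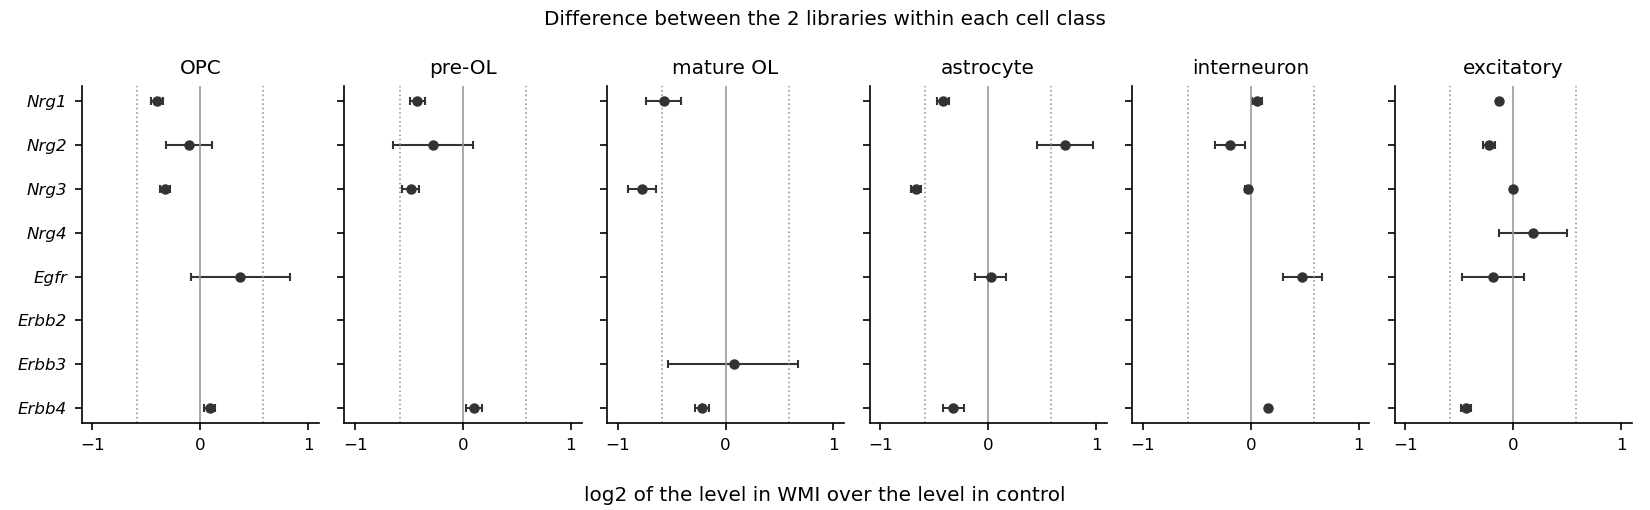
Log2 ratio of the WMI level to the control level (x axis) for each member with at least 100 UMIs in the class, in 6 cell classes; bars are 95% conditional binomial intervals that cover counting error only, and dotted lines mark 1.5-fold. Nrg2 and Nrg3 in astrocyte-like cells (0.71 and -0.67) and Nrg3 in mature OL-like cells (-0.77) lie past the dotted lines.

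Other genes of the pathway were read from 5 lists. Of the other EGF-family ligands, 7 genes, at most 3 had enough UMIs in a class. Tgfa, a ligand of Egfr, was higher in WMI in excitatory neuron-like cells, with 3.57 CPM in control and 8.63 CPM in WMI, a log2 ratio of 1.27 (0.95 to 1.6). This level was low beside 141 and 174 CPM in OPC-like and 110 and 112 CPM in pre-OL-like cells, which were short of the fold. Interneuron-like cells held 3.82 and 9.40 CPM, from too few UMIs to be compared. No other gene of that list was past the fold in any class. Among 7 protease genes that act on neuregulins or ErbB4, Adam19 was lower in mature OL-like cells, from 124 to 49.0 CPM, a log2 ratio of -1.34 (-1.99 to -0.74). Ncstn, a gamma-secretase subunit, was higher in OPC-like cells, from 23.9 to 36.9 CPM (0.63, 0.09 to 1.19), and in astrocyte-like cells, from 18.4 to 33.1 CPM (0.84, 0.33 to 1.38). The list had 1 of 6 genes past the fold in OPC-like and 0 of 4 in pre-OL-like cells. It had 1 of 3 in mature OL-like, 1 of 5 in astrocyte-like and 0 of 7 in each neuronal class. Over all genes compared, the shares past the fold were 7.24% in OPC-like, 9.55% in pre-OL-like, 16.5% in mature OL-like and 17.6% in astrocyte-like cells. In interneuron-like and excitatory neuron-like cells they were 8.47% and 10.0%. With so few genes compared per list, the counts of the 5 lists cannot be set apart from these shares.

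The 19 adaptors and kinases below the receptors had 1 of 15 genes past the fold in OPC-like cells, 1 of 14 in pre-OL-like, 2 of 12 in mature OL-like and 2 of 15 in astrocyte-like cells, and 0 of 17 and 0 of 19 in interneuron-like and excitatory neuron-like cells. These counts, too, cannot be set apart from the shares of all genes in the same classes. The median log2 ratios of the list ran from -0.13 in mature OL-like to 0.07 in astrocyte-like cells. The medians of all genes compared in these 2 classes were -0.04 and 0.10. Fyn, a Src-family kinase with a known role in myelination, was higher in WMI in mature OL-like cells, at 572 and 923 CPM (0.69, 0.51 to 0.87). Its level was higher still in pre-OL-like cells, at 3334 and 3142 CPM (-0.09, -0.15 to -0.02). Whether the make-up of the mature OL-like class had a part was not tested. Pik3cb, a PI3-kinase catalytic subunit, was higher in OPC-like cells, at 55.5 and 92.6 CPM (0.74, 0.39 to 1.09), and in astrocyte-like cells, at 24.0 and 40 CPM (0.74, 0.28 to 1.20). Map2k1 was higher in pre-OL-like cells, at 31.7 and 50 CPM (0.66, 0.01 to 1.36), and the adaptor Gab1 in astrocyte-like cells, at 109 and 177 CPM (0.70, 0.49 to 0.92).

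Of 10 inhibitors of ErbB signalling, Lrig1 was past the fold in interneuron-like cells, at 26.3 CPM in control and 17.0 CPM in WMI (-0.63, -1.09 to -0.19). No inhibitor passed it in the 5 other classes, with 3 to 8 compared. Of 9 scaffolds and partners of ErbB2 or ErbB4, 2 were higher in astrocyte-like cells. These were Erbin, which binds ErbB2, at 125 and 246 CPM (0.97, 0.78 to 1.17), and Tab2, a partner of the cleaved ErbB4 domain, at 133 and 291 CPM (1.13, 0.95 to 1.32). Magi2 was lower in mature OL-like cells, at 3648 and 2350 CPM (-0.64, -0.73 to -0.54). None of 8 or 9 genes of that list was past the fold in OPC-like, pre-OL-like, interneuron-like or excitatory neuron-like cells. Astrocyte-like and mature OL-like cells were also the classes with the largest share of all genes past the fold, 17.6% and 16.5%. The counts of the inhibitors and of the scaffolds and partners cannot be set apart from the shares of all genes.

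The genes with levels most like each member were taken over 17 points, the named classes of both libraries with at least 30 cells, among 12382 genes. The points share libraries and may share free RNA, so the correlations of log2 levels describe these libraries only. Nrg3 was most like Slc4a10 (Pearson r = 0.98), Pde10a (0.98) and Fam135b (0.98). Nrg1 was most like Arpp21 (0.92), Khdrbs3 (0.91) and Ext1 (0.91), and Nrg2 like Myo16 (0.92), Smarca1 (0.91) and Syn2 (0.90). Nrg4 was most like Smyd5 (0.89), Anxa7 (0.88) and Slc6a15 (0.88), and Egfr like Crtc3 (0.92) and Ncoa1 (0.88). For Erbb4 the first 2, Gm37735 (0.98) and Gm37769 (0.95), lie within Erbb4 on the same strand, so that their reads may be reads of Erbb4, and the next was Sox2ot (0.89). Erbb2 and Erbb3 had fewer than 500 UMIs and were left out.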

How the data were processed

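The authors deposited, per library, a matrix of whole UMI counts per gene and barcode, made with Cell Ranger 6.1.1 per the file headers. The labels name mm9, but all 55450 gene identifiers and symbols matched GENCODE M21 (GRCm38). Whether intronic reads were counted is not given in the sources used here.

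From these counts, barcodes with at least 1000 UMIs, 500 genes and at most 10% mitochondrial UMIs were kept, and 785 control and 542 WMI doublets, predicted from artificial doublets, were removed. Cells were integrated and clustered in Seurat 5.3.0 (2000 features, 30 dimensions, resolution 0.8), without the members, pathway genes, sex-linked and cell cycle genes among the features. Clusters were named from marker lists, with thresholds set after the clusters were seen, a layer name was dropped where another layer's markers led the cluster, and oligodendrocyte lineage cells were clustered again. UMIs were summed per class and library. Levels have exact Poisson intervals, ratios have conditional binomial ones and shares Clopper-Pearson ones. Only the ratio intervals were tested on simulated data. UMIs of 1 cell are not independent of each other, and intervals and the limits from 3 counts cover counting error only. Shares at 1000 UMIs are averages over all ways of drawing 1000 UMIs from each cell.

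Named were the 8 members, the 3 genes most like each, and pathway genes past 1.5-fold with an interval that leaves out 0, at most 4 per list and class. Some genes that this rule names are not reported here. Other genes are named for context and were chosen after their values were seen. The members and lists were chosen with earlier results of these data known. Alternatives covered doublets, minimum counts, centring, averaging over cells, thinning, resolution, cluster make-up, sex, depth and mitochondrial share. The study's methods name 4 replicates per group; 1 library of each was analysed here.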

Additional observations from a re-analysis of the deposited data

How the results depend on the processing

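The count of members past 1.5-fold stayed within 1.5 times the reported one in 65 of 79 recomputations. With predicted doublets kept it was 2 in mature OL-like and 1 in astrocyte-like cells. With a minimum of 20 UMIs it was 1 in OPC-like and 1 in excitatory neuron-like cells. With no minimum it was 2, 3, 3, 4 and 1 in OPC-like, pre-OL-like, mature OL-like, astrocyte-like and excitatory neuron-like cells, where 43.7%, 54.5%, 52.2%, 50.4% and 41.7% of all genes were past the fold. With cells thinned to 1000 UMIs it was 0 in astrocyte-like cells. In mature OL-like cells it was 2 at resolution 0.4, 2 at resolution 1.6 and 2 with at most 1% mitochondrial UMIs. With the clusters kept out of the excitatory class, an alternative added after seeing the data, it was 2. Where no share of all genes past the fold is given for a setting and class, the count cannot be set apart from that share. Apart from the minimum, which admits genes with few UMIs, the cause was not tested. Of all genes in OPC-like cells, 439 of 6062 were past the fold at 100 UMIs, 2312 of 12270 at 20, 10242 of 23451 with no minimum and 100 of 1442 when thinned. Of the members' log2 ratios, 305 of 383 moved by less than their counting interval. Part of this was fixed in advance. The minimum of UMIs cannot change a ratio, and 0 of 29 moved at 20 UMIs and with no minimum. Leaving out clusters of 1 library removed none from the 6 classes, so neither the ratios (0 of 29 moved) nor the counts of members could change. The settings that moved the most ratios were thinning, with 20 of 29, and male cells only, with 14 of 29. The shares of cells moved in 77 of 96 cases without thinning. The order of classes was kept in 22 of 32 recomputations, and 3 of 6 members kept at least 2 of their 3 most similar genes under Spearman's correlation. No paired analysis was possible because each group has 1 library, so no replicate could be left out either. Counting error limits Erbb2, Erbb3 and Nrg4 most.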

Other observations

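Neuroblast-like cells, led by Igfbpl1, Draxin and Dlx6os1, were not among the 6 classes compared, and their levels of Nrg2 and Nrg1 differed between the libraries. Nrg2 had 18 UMIs in 55 control cells and 108 UMIs in 181 WMI cells, or 63.9 and 142 CPM, a log2 ratio of 1.15 (95% counting interval 0.43 to 1.96). Nrg1 was at 3574 CPM in control and 1888 CPM in WMI, a log2 ratio of -0.92 (-1.04 to -0.80). Nrg3 was at 3776 and 3862 CPM. In microglia-like cells Nrg1 went from 2726 to 1429 CPM, a log2 ratio of -0.93 (-1.05 to -0.82). Activated myeloid-like cells of WMI held 1918 CPM of Nrg1. The microglia-like levels of Nrg2 were 98.5 and 53.5 CPM, and those of Nrg3 4688 and 2350 CPM. The part of free RNA was not tested, and the share of all genes past the fold in neuroblast-like cells is not given. An unnamed cluster led by Slc6a20a, Bmp6 and Ptgds held Egfr at 444 CPM in 28 control cells and 354 CPM in 67 WMI cells, above the level in astrocyte-like cells.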
